A study of Zea mays with 2 samples.

Results

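Of 6970 maize loci with at least 10 FPKM in wild-type endosperm, 43 had less than 1 FPKM in endosperm of the defective-kernel mutant dek10, and these 43 loci are described here. FPKM is a fragment count divided by the length of the transcript and the size of the library. The loci were taken from 53679 rows per library, at 47541 distinct positions, by keeping chromosomes 1 to 10, spans of at least 200 bp and coordinates listed once. The loci were chosen by their FPKM values in both libraries, so their low dek10 values are a description and carry no test. The tissue was endosperm at 15 days after pollination from dek10 and from wild type, with 1 column of values per genotype. The series' design text speaks of triplicates. The sources used here do not say if a column stands for 1 library, several pooled ones or their mean, and each column is treated as 1 library. Nor do they give the kernel background, the dek10 allele or how many kernels or ears were sampled. Differences are thus between 2 libraries, with no replicate check and an unknown number of reads behind each value.

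Endosperm is the part of the maize kernel that fills with starch and storage proteins, and defective kernel mutants form small or poorly filled grains. The dek10 gene is known, from work on maize, for a product in mitochondrial RNA editing, a pentatricopeptide repeat protein. Proteins of this large plant family bind organelle RNA. The files give positions in B73 RefGen_v3, the genome build named in the submitters' processing notes, and pair them with no gene names. The loci are therefore given by position, and what each encodes, whether a stretch is exonic and the level of dek10 itself were not analysed here. A span runs from the first to the last base of a locus and may include introns. The libraries summed to similar totals of FPKM, but among rows above 0 in both, with at least 1 FPKM in either, the median ratio of dek10 over wild type was 1.50.

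The set consisted mainly of loci with low FPKM in wild type, together with a pair of very abundant ones. In dek10, 19 of the 43 loci were listed at 0 and 24 had between 0.0759 and 0.903 FPKM, with a median of 0.466. Expressed in wild type but not in dek10 therefore means below 1 FPKM, and not always absent. In wild type the values ran from 10.1 to 1163 FPKM, with a median of 13.8. There, 30 loci had less than 20 FPKM, 11 had 20 to 100 FPKM and 2 had more. The 24 loci above 0 in dek10 were 11.9-fold to 207-fold lower there than in wild type, with a median of 54.7-fold. For the other 19 no fold is given. Members made up 0.617% of eligible loci of at least 10 FPKM in wild type, a share that the rule itself sets. Summed over the 43 loci, FPKM came to 11.0 in dek10 and 3090 in wild type, and 72.1% of the wild-type sum lay in the 2 most abundant loci. Without those 2, the sums were 11.0 FPKM in dek10, against 861 in wild type.

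**Figure D1:**
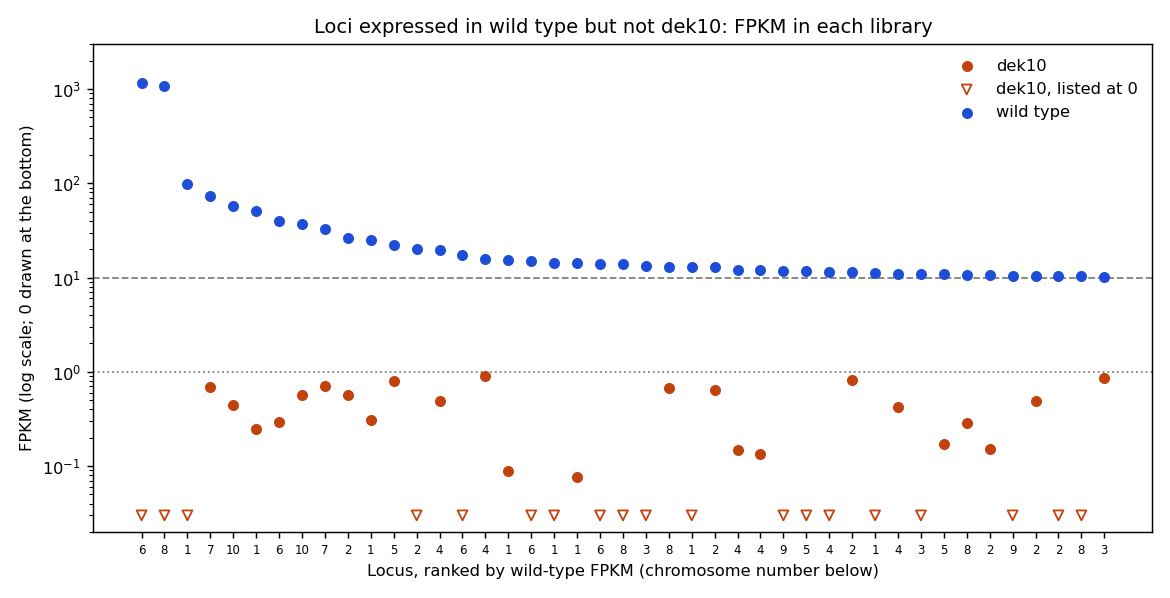
FPKM of each of the 43 loci in dek10 (orange) and wild type (blue) on a log axis, ordered by the wild-type value, with the chromosome number under each locus. Open triangles at the bottom are the 19 loci listed at 0 in dek10, and the dashed and dotted lines mark the thresholds of 10 and 1 FPKM; 2 loci stand above 1000 FPKM in wild type and the next has 98.0 FPKM.

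The most abundant member was a 345-bp locus at chr6:144915969-144916313, listed at 0 in dek10 and at 1163 FPKM in wild type. It ranked 37 among the 6970 eligible loci of at least 10 FPKM in wild type. The nearest listed position lay 1244 bp away, at chr6:144917558-144926898, with 17.8 FPKM in dek10, against 11.1 in wild type. That neighbour's ratio was close to the median ratio of 1.50 across rows, unlike that of the short locus beside it. The second, a 501-bp locus at chr8:44966367-44966867, was also listed at 0 in dek10 and had 1067 FPKM in wild type, rank 43. It was isolated, with 62385 bp to the nearest listed position and 1 position within 100 kb.

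The next 4 loci had 50 to 100 FPKM in wild type. On chromosome 1, the 807-bp locus at chr1:194835059-194835865 was listed at 0 in dek10 and at 98.0 FPKM in wild type. On chromosome 7, the locus at chr7:22710944-22712601 had 0.685 FPKM in dek10, against 73.5 in wild type, 107-fold lower in dek10. On chromosome 10, the locus at chr10:135531885-135532862 had 0.443 FPKM in dek10, against 58.0 in wild type. The largest fold among the 24 loci above 0 in dek10 was at chr1:275902181-275903395, with 0.245 FPKM in dek10, against 50.7 in wild type, 207-fold lower in dek10. At 1724 bp from it, the locus at chr1:275896763-275900456 had 43.2 FPKM in dek10, against 21.5 in wild type, and was not lower.

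The remaining 4 of the 10 most abundant members lay between 26 and 40 FPKM in wild type. The 1000-bp locus at chr6:140501700-140502699 had 0.296 FPKM in dek10, against 39.5 in wild type. The locus at chr10:127945737-127946522 had 0.569 FPKM in dek10, against 37.0 in wild type. The other 2, at chr7:120138889-120143660 and at chr2:6975676-6976610, are described with their neighbours below.

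Every chromosome from 1 to 10 held members, from 2 on chromosomes 7, 9 and 10 to 8 on chromosome 1. As a share of eligible loci of at least 10 FPKM in wild type, they ran from 0.360% on chromosome 5 to 0.883% on chromosome 2. The highest member of chromosome 3, at chr3:181803011-181804893, was listed at 0 in dek10 and had 13.3 FPKM in wild type. With 1883 bp it was the longest of the 19 loci listed at 0. The highest of chromosome 5, at chr5:193359341-193362190, had 0.804 FPKM in dek10, against 22.0 in wild type. The highest of chromosome 9, a 201-bp locus at chr9:148494318-148494518, was listed at 0 in dek10 and had 11.8 FPKM in wild type.

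Members had a lower median in wild type than other eligible loci of at least 10 FPKM. Their median was 13.8 FPKM, with quartiles of 11.3 and 23.4, against 21.3 FPKM, with quartiles of 14.2 and 37.3, for the 6927 others. At 50 FPKM or more stood 14.0% of the members and 17.0% of the others. By wild-type level, members made up 0.930% of 3225 loci from 10 to 20 FPKM, 0.274% of 2559 from 20 to 50 and 0.556% of 719 from 50 to 100. They were 0 of 395 loci from 100 to 500 FPKM and 2 of 72 above that, or 2.78%. The floor of 1 FPKM asks for a larger fold at a higher level, so this order is partly set by the rule. With a threshold that scales with the level, a dek10 value more than 10-fold below wild type, 77 loci were found, or 1.10%. In the other direction, 160 of 8939 loci of at least 10 FPKM in dek10, or 1.79%, were more than 10-fold higher there. Both shares are on the deposited scale, where the median ratio of dek10 over wild type was 1.50. They were not computed after scaling by that ratio. The 77 comprised the 43 members and 34 others, whose median was 1.84 FPKM in dek10, against 34.4 in wild type, and the 77 had a wild-type median of 19.2 FPKM. By that threshold the share was 1.24% from 10 to 20 FPKM, 0.625% from 20 to 50, 1.11% from 50 to 100, 1.52% from 100 to 500 and 9.72% (7 of 72) above that. Without the fixed floor, the share was thus highest among the most abundant loci. The same held for loci more than 10-fold higher in dek10, by their dek10 level. Their share was 6.67% (7 of 105) at 500 FPKM and over and 2.51% from 100 to 500. It was 2.08% from 10 to 20 FPKM, 1.34% from 20 to 50 and 1.23% from 50 to 100. With a wild-type minimum of 20 FPKM, the 13 remaining members had the higher median, 39.5 FPKM against 35.3 FPKM for the others. With no minimum span the medians were 32.7 FPKM for 113 loci and 21.4 FPKM for the others, so the lower median of members holds for the rule as written and not for these settings. With no minimum span the shares by level also rose with the level above 20 FPKM, to 0.962% from 20 to 50 FPKM, 1.62% from 50 to 100, 2.76% from 100 to 500 and 20% above that.

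**Figure D2:**
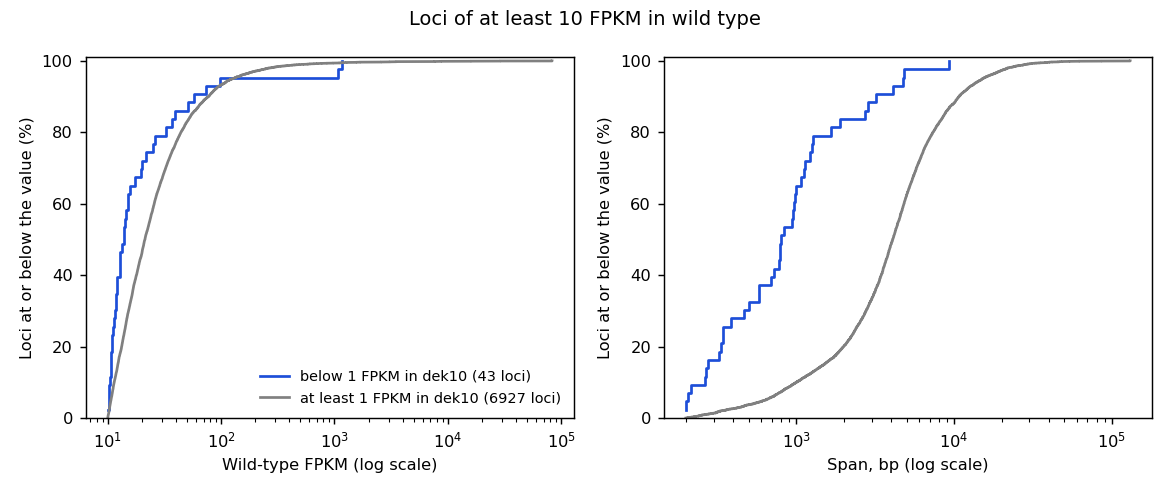
Cumulative share of loci (percent) by wild-type FPKM (left) and by span in bp (right), both on log axes, for the 43 loci below 1 FPKM in dek10 (blue) and the 6927 other loci of at least 10 FPKM in wild type (grey). The blue curves lie to the left over most of their length, with medians of 13.8 against 21.3 FPKM and 807 against 4090 bp.

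Members were short. Their median span was 807 bp, with quartiles of 365 and 1235 bp, against 4090 bp, with quartiles of 2386 and 6408 bp, for the other loci of at least 10 FPKM in wild type. The rule used span as a minimum of 200 bp and in no other way. Members made up 4.80% of 271 loci from 200 to 500 bp, 3.11% of 450 from 500 to 1000 bp and 1.28% of 703 from 1000 to 2000 bp. The share was 0.204% of 2934 loci from 2000 to 5000 bp and 0.0383% of 2612 longer ones. The longest member, at chr4:107844001-107853299, spanned 9299 bp and had 0.903 FPKM in dek10, against 15.7 in wild type. The next, with 4817 bp at chr8:20562462-20567278, had 0.288 FPKM in dek10, against 10.8 in wild type. The lower median was seen at like spans too, where the same floor of 1 FPKM in dek10 applied. That floor partly sets the level of members at any span, so these medians are a description and no separate support. From 200 to 500 bp the median wild-type FPKM was 11.8 for 13 members and 23.5 for 258 others, from 500 to 1000 bp 16.8 for 14 and 23.6 for 436, and from 1000 to 2000 bp 14.3 for 9 and 20.7 for 694.

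The values listed at 0 went with short spans. All 13 members under 500 bp were listed at 0 in dek10, against 6 of the 30 longer ones. The median span was 343 bp for the 19 loci at 0 and 1127.5 bp for the 24 above it, while their median wild-type values, 13.3 and 14.8 FPKM, were close. Values between 0 and 1 FPKM did occur at short spans. Among eligible loci of 200 to 500 bp, whatever their wild-type level, 1999 were below 1 FPKM in dek10, 61.2% of them listed at 0, and the smallest positive dek10 value was 0.188 FPKM. From 2000 to 5000 bp, 28.3% of the 6157 loci below 1 FPKM in dek10 were listed at 0. The ratio of the libraries also varied more at short spans. Among eligible loci of at least 10 FPKM in either library, leaving out those below 1 FPKM in the other, the log2 ratio of dek10 over wild type, after adding 1 FPKM to both, had an interquartile range of 1.29 from 200 to 500 bp. It was 0.81 from 2000 to 5000 bp and 0.69 above that. The part of this spread in the choice of short members was not tested.

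The mirror set, loci of at least 10 FPKM in dek10 and below 1 FPKM in wild type, was larger on the deposited scale and also short in span and low in level. Members were 43 of 6970 loci, or 0.617%, and mirror loci 105 of 8939, or 1.17%. This gap rests on the scale: after dividing all dek10 values by the median ratio of 1.50, the members' rule found 60 of 6970 loci, or 0.861%, and the mirror rule 61 of 6782, or 0.899%. On the deposited scale, the median span was 807 bp in the members and 1058 bp in the mirror set, and the median level, in the library where each is expressed, was 13.8 and 16.3 FPKM. Other loci of at least 10 FPKM in dek10 had medians of 3952 bp and 24.6 FPKM. From 200 to 500 bp, 4.80% of wild-type loci and 7.30% of dek10 loci were below 1 FPKM in the other library, and above 5000 bp 0.0383% and 0.0630%. Short span and low level were thus shared by both sets. Both rules have the same floor of 1 FPKM, which partly sets the low level. By the 10-fold threshold, the share was highest at 500 FPKM and over in both directions, 9.72% and 6.67%. A mirror locus lay within 1000 kb of 0 of the 43 members and of 847 of the 6927 other loci of at least 10 FPKM in wild type, or 12.2%.

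**Figure D3:**
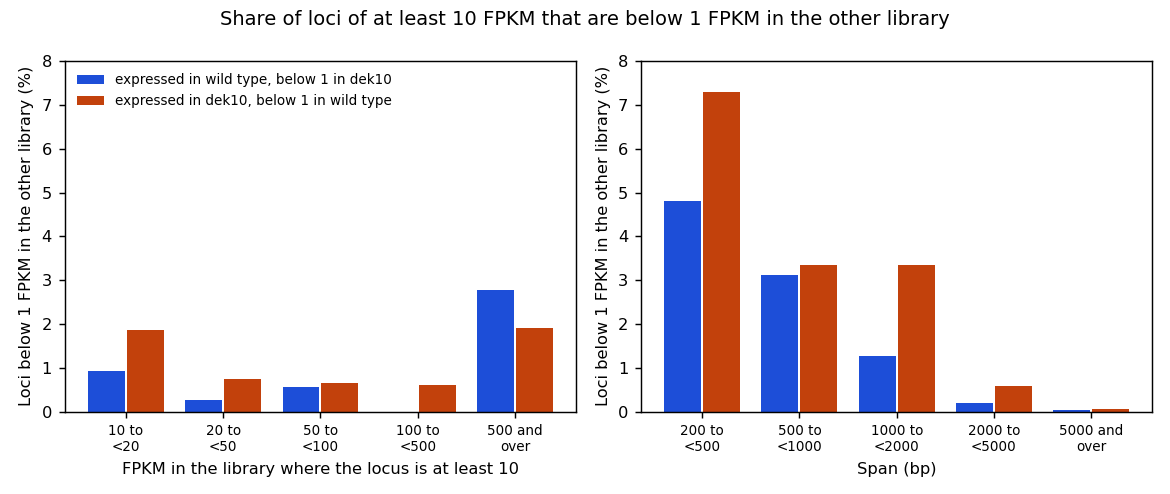
Percent of loci of at least 10 FPKM in 1 library that are below 1 FPKM in the other, by level (left) and by span (right), for wild-type loci low in dek10 (blue) and dek10 loci low in wild type (orange). From 200 to 500 bp the shares are 4.80% and 7.30%, and above 5000 bp 0.0383% and 0.0630%; the bar missing from 100 to 500 FPKM is 0 of 395 loci, and the bins above 500 FPKM hold 2 loci of each set.

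Members were mostly scattered singly over the genome. Among the eligible loci of at least 10 FPKM in wild type, 1 pair of members was adjacent, on chromosome 2. Another member lay within 100 kb of 2 of the 43 members, or 4.65%, where members made up 0.617% of those eligible loci. How many adjacent pairs would arise at that share was not computed. None of the 43 overlapped another listed position, and overlaps were not counted for the other loci. The distance to the nearest listed position, leaving out overlapping ones, had a median of 3397 bp. It was 2773 bp for other loci of at least 10 FPKM in wild type. A position of nearly the same span, within 5%, lay inside 100 kb for 6 of 43 members, or 14.0%, and for 17.4% of the others.

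The nearest loci of at least 10 FPKM in either library, leaving out members, were looked for on each side within 100 kb. They were not used to choose the members. Such a neighbour existed for 31 of the 43 members, or 72.1%, and for 70.4% of the 6927 other loci. The neighbours of members were 38 distinct loci in all. Of these, 7 were at least 2-fold lower in dek10, 6 at least 2-fold higher and 25 between, on the log2 scale with 1 FPKM added. The 7 lower loci were 18.4% of the neighbours, where 4.21% of all 9425 eligible loci of at least 10 FPKM in either library were lower, and 4.10% of the neighbours of other loci. The 9425 loci include the 43 members, all lower by the rule, while the neighbours include none. The 6 higher ones were 15.8%, where 27.9% of all such loci and 27.3% of the neighbours of other loci were higher. The median log2 ratio was 0.47 for neighbours of members and 0.63 for neighbours of the others. Leaving out neighbours whose mean in the libraries reached 500 FPKM, 4 of 35 were lower, or 11.4%, against 3.82% beside the other loci, and the median was 0.60. With dek10 values lowered by that ratio of 1.50, 9 of the 38 neighbours were lower, or 23.7%, where 8.12% of all 9425 loci and 8.08% of the neighbours of other loci were. Then 1 of the 38 was higher, or 2.63%, where 10.2% of all such loci and 10.05% of the neighbours of other loci were. The medians on this scale were -0.067 for neighbours of members and 0.075 for neighbours of the others. These are counts of few loci from 2 libraries, and some members share a neighbour. Most of the 7 lower neighbours on the deposited scale spanned less than 2000 bp. Among the 9425 loci, 12.1% from 200 to 500 bp, 13.1% from 500 to 1000 bp and 8.10% from 1000 to 2000 bp were lower. The share was 2.68% from 2000 to 5000 bp and 1.95% above that. Neighbours were not compared at like spans.

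**Figure D4:**
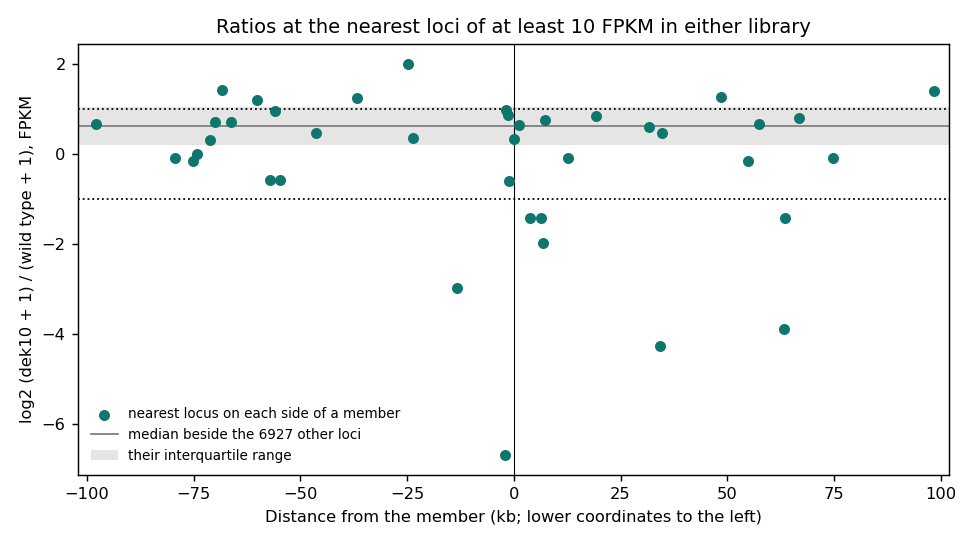
Log2 ratio of dek10 over wild type, with 1 FPKM added to both, against distance in kb from a member. Points are the nearest loci of at least 10 FPKM in either library on each side, leaving out members (40 points for 38 loci). The grey line and band are the median and interquartile range beside the 6927 other loci, dotted lines mark 2-fold, and 25 of the 38 loci lie between them while 7 lie below -1.

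The 7 lower neighbours lay within 100 kb of 7 members at 6 places. On chromosome 4, the member at chr4:5086216-5087171 had 0.489 FPKM in dek10, against 19.5 in wild type, 39.9-fold lower. It lay 2060 bp from the locus at chr4:5083079-5084155, with 27.5 FPKM in dek10, against 2942 in wild type. On its other side, 6933 bp away, the locus at chr4:5094105-5094990 had 1648 FPKM in dek10, against 6453 in wild type. This member therefore lay between loci far more abundant in wild type than itself that were lower in dek10 too, by 107-fold and 3.91-fold.

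On chromosome 2, the 2 adjacent members lay 1434 bp apart and had spans of 975 and 935 bp. The first, at chr2:6973267-6974241, had 0.809 FPKM in dek10, against 11.3 in wild type. The second, at chr2:6975676-6976610, had 0.564 FPKM in dek10, against 26.1 in wild type. The next positions were lower too, by unequal amounts. The locus at chr2:6980501-6981214 had 19.4 FPKM in dek10, against 53.3 in wild type, and that at chr2:6982789-6983559 had 3.56 FPKM in dek10, against 39.0 in wild type, 11.0-fold lower. Further on, 12366 bp from the second member, the locus at chr2:6988977-6991901 was no longer lower, with 31.1 FPKM in dek10, against 20.8 in wild type, a ratio close to the median of 1.50 across rows.

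On chromosome 1, the member at chr1:161809221-161812401 had 0.0876 FPKM in dek10, against 15.2 in wild type, 173-fold lower. The locus at chr1:161795490-161795834 had 11.7 FPKM in dek10, against 99.9 in wild type, and that at chr1:161790710-161791432 had 873 FPKM in dek10, against 8605 in wild type. On the other side, 1442 bp away, a position of nearly the same span as the member (3174 bp against 3181 bp) was below 0.1 FPKM in both libraries. Whether these positions are alike in sequence was not examined. The sources used here do not say how reads were divided among similar sequences.

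On chromosome 7, the 4772-bp member at chr7:120138889-120143660 had 0.705 FPKM in dek10, against 32.7 in wild type, 46.4-fold lower. Its neighbour at chr7:120206897-120208211, 63236 bp away, had 1956 FPKM in dek10, against 29079 in wild type. On chromosome 6, the member at chr6:140501700-140502699 had the locus at chr6:140536934-140537348 on its far side, 34234 bp away. That locus had 34.4 FPKM in dek10, against 682 in wild type. The member's nearer neighbour, 1137 bp away, had 7.91 FPKM in dek10, against 12.6 in wild type. On chromosome 8, the member at chr8:20562462-20567278 had 1 lower and 1 higher neighbour, with log2 ratios of -1.41 and 1.42. They lay 63623 and 68418 bp away. These places were chosen once their values had been seen.

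Several members lay close to the thresholds. Just inside 10 FPKM in wild type were the loci at chr3:204761035-204762289, at chr8:93814477-93814801 and at chr2:203746930-203747129, with 10.1, 10.3 and 10.3 FPKM. Just outside were loci with 9.88, 9.53 and 9.53 FPKM in wild type. The 3 highest dek10 values among members were 0.903, 0.850 and 0.809 FPKM, and the 3 lowest among the other loci were 1.01, 1.06 and 1.06 FPKM. In all, 25 of the 43 members had less than 15 FPKM in wild type. Without the conditions on span and coordinates, 144 rows on chromosomes 1 to 10 met both FPKM thresholds. Of those left out, 70 were shorter than 200 bp and 31 shared their coordinates with another row. At 23 of those 31 coordinates, the rows together had at least 1 FPKM in dek10.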

How the data were processed

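Endosperm RNA from dek10 and from wild type was extracted with Trizol and treated with DNase I, and libraries followed Illumina procedures, per the labels' protocols. The authors deposited FPKM values, per the file headers. Bowtie 0.12.2 and the build B73 RefGen_v3 are named in the submitters' processing notes; no source used here gives the quantification program, annotation or filters. The rows of the files were paired by order, and all 53679 had equal coordinates. Starts are counted from 0 in the files, so 1 was added. The members, comparisons and named positions were chosen with earlier results of these data known. Named are the 10 members highest in wild type, the highest of each chromosome, the 3 longest, adjacent members and those next to a threshold. With 1 library per genotype no test was possible. Counts use plain FPKM, and log2 ratios add 1 FPKM. Alternatives changed thresholds, scaling, spans, shared coordinates, window and pseudocount. Read depth is unknown, so no counting interval is given. Marker lists need gene names and were not used here. Python 3.11.15, numpy 2.4.6, pandas 2.3.3 and matplotlib 3.10.9 were used.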

Additional observations from a re-analysis of the deposited data

How the results depend on the processing

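Of 119 alternatives computed, 43 moved a value by more than a factor of 1.5 (0.1 for log2 medians) and 76 did not. Among the 58 for main results, 24 moved. Some of the 76 could not move. A wild-type minimum of 5 FPKM leaves the shares by level unchanged, and pairing by coordinates gives the same rows. Summing rows at shared coordinates, leaving out neighbours of 500 FPKM or more and scaling with the same members were added after seeing the data. The 43 members became 134 at 5 FPKM and 13 at 20 FPKM in wild type, 75 at 2 FPKM and 19 at 0 in dek10, 113 with no minimum span, and 74 with shared coordinates kept. The members' median wild-type FPKM, 13.8, was 7.79 at 5 FPKM, 39.5 at 20 FPKM and 32.7 with no minimum span. At 20 FPKM and with no minimum span it lay above the other loci's median, 35.3 and 21.4 FPKM, so the lower median of members did not hold there. Members held 0.518% of the wild-type FPKM summed over eligible loci of at least 10 FPKM in wild type. That share was 1.11% at 2 FPKM in dek10, 5.17% with no minimum span and 1.54% with shared coordinates kept. The share of members from 10 to 20 FPKM, 0.930%, was 1.64% at 2 FPKM and 0.465% at 0 in dek10, and has no value at a minimum of 20 FPKM. The median span, 807 bp, was 1235 bp with shared coordinates kept, against 4366 bp for the other loci there. Members next to another member, 2, were 0 at 20 FPKM, 4 at 2 FPKM in dek10 and 4 with shared coordinates summed. The median log2 ratio of members' neighbours, 0.47, was -0.25 after median-of-ratios scaling with members chosen anew, -0.067 after it with the same members, 0.60 without neighbours of 500 FPKM or more, 0.13 within 20 kb (12 loci), 0.35 at a pseudocount of 5 FPKM and 0.22 at a minimum of 1 FPKM; beside the other loci it was 0.021, 0.075, 0.63, 0.62, 0.52 and 0.50 in that order. The cause was not tested. No paired analysis was possible because there is 1 library per genotype, so no library could be dropped either.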
